A study of Mus musculus with 9 samples.

Results

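The genes described here are 10 genes of major histocompatibility complex (MHC) class I antigen presentation, out of 55471 genes listed for each of 9 cultures of mouse articular chondrocytes. They were chosen by name, through the Ensembl identifier of each gene, and not by a limit on their values. Earlier results of these data were known when they were chosen. The 10 are *B2m*, *H2-K1*, *H2-D1*, *Tap1*, *Tap2*, *Tapbp*, *Psmb8*, *Psmb9*, *Psmb10* and *Nlrc5*. All 10 were found once and all 10 passed the filter on low counts.

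In this pathway proteins inside the cell are cut into peptides by the proteasome, the TAP transporter carries the peptides into the endoplasmic reticulum, and a loading complex fits them into a heavy chain paired with beta-2-microglobulin, which then shows them to CD8 T cells at the cell surface. Under interferon, cells exchange the catalytic subunits of the constitutive proteasome for those of the immunoproteasome and make more of many parts of the pathway. NLRC5 is the transactivator of class I genes: it has no DNA-binding domain of its own and acts through an assembly of RFX, CREB or ATF, and NF-Y proteins on a conserved promoter module, as CIITA does for class II genes. Chondrocytes, like most nucleated cells, carry class I molecules.

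RNA was sequenced from 3 groups of 3 cultures of articular chondrocytes, the cells that make the cartilage matrix, prepared from wild-type mice at postnatal day 5. The groups received Ad-Control, Ad-OSCAR (an adenovirus carrying the collagen receptor OSCAR), or Ad-OSCAR and then 5-ASA (5-aminosalicylic acid, an anti-inflammatory drug used in ulcerative colitis). The study asked what OSCAR changes in chondrocytes and whether 5-ASA reverses it. All plates were coated with COLpep, a collagen peptide that binds OSCAR, no IL-1β was added, and all groups, the controls included, were infected with an adenovirus. The sample annotations give 3 days of culture, infection at 400 MOI for 2 h and 36 h before the treatment, and the paper's methods give other times and another MOI. The paper defines n in general as independent biological samples, mice or specimens, without naming these cultures. No source used here states that the cultures of a group came from separate animals, so the p-values measure the spread between cultures, which may be technical. The paper's methods name ICR and C57BL/6 J mice, its reporting summary names ICR neonates for the cells, and the reads were aligned to a genome of the C57BL/6 J strain. Class I heavy chains differ between strains, so reads from other alleles could be lost or given to another H2 gene, to an extent that was not tested.

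Each culture had between 19733448 and 28192740 counts. *Oscar* counts matched the labels, with 3 to 4 under Ad-Control, 173445 to 187278 under Ad-OSCAR and 80766 to 94199 where 5-ASA was added, and its level was lower with 5-ASA than without (log2 fold change -0.97). The 6 chondrocyte markers (*Col2a1*, *Acan*, *Sox9*, *Col9a1*, *Comp* and *Matn1*) were expressed in every culture, with a summed level of 36700 to 42180 CPM in Ad-Control, 2107 to 2451 CPM in Ad-OSCAR and 2585 to 3029 CPM in 5-ASA-treated cells. In RNA from whole cultures, fewer cells of a type and less RNA per cell cannot be told apart. Of the 8 markers of macrophages and monocytes, *Ptprc*, *Adgre1* and *Itgam* had 3 counts or fewer in every culture, while the summed level of the list was 15.61 to 18.29 CPM in Ad-Control, 35.62 to 36.37 CPM in Ad-OSCAR and 29.73 to 31.01 CPM with 5-ASA. *Cd14*, *Cd68* and *Lyz2* rose with OSCAR, by a log2 fold change of 1.07, 2.06 and 0.43, and *Csf1r* was at -0.47 (adjusted p = 0.233). The part of these cells in the values below was not tested. Of 4 markers of synovial fibroblasts, *Prg4* and *Pdpn* rose and *Thy1* and *Col1a1* fell with OSCAR. *Cd3d* and *Cd3e* of T cells had no counts in any culture, and the lists for dendritic cells, B cells, NK cells and endothelium held no gene that passed the filter on low counts.

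In the GENCODE M21 annotation of GRCm38, 7 of the 10 genes lie on chromosome 17, in the MHC. These are *Tapbp* (ENSMUSG00000024308.15, chr17:33915899-33929292, plus strand), *H2-K1* (ENSMUSG00000061232.16, chr17:33996017-34000347, minus strand), *Psmb9* (ENSMUSG00000096727.3, chr17:34181987-34187764, minus strand), *Tap1* (ENSMUSG00000037321.17, chr17:34187553-34197225, plus strand), *Psmb8* (ENSMUSG00000024338.15, chr17:34197721-34201454, plus strand), *Tap2* (ENSMUSG00000024339.12, chr17:34203527-34216321, plus strand) and *H2-D1* (ENSMUSG00000073411.12, chr17:35262730-35267499, plus strand). *B2m* (ENSMUSG00000060802.8, chr2:122147686-122153083, plus strand) lies on chromosome 2. *Nlrc5* (ENSMUSG00000074151.13, chr8:94434356-94527272, plus strand) and *Psmb10* (ENSMUSG00000031897.9, chr8:105935735-105938444, minus strand) lie on chromosome 8. The counts cover whole genes, and parts within a gene were not counted separately.

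The promoters of 4 genes that rose with OSCAR are shown because the elements through which NF-κB, interferon regulatory factors and the NLRC5 assembly act on class I genes are known to lie there. RefSeq windows of GRCm38.p6, from 250 bases before to 50 bases after a start site, were at hand for 8 of the 10 genes. None was found for *Tap2* and *Nlrc5*. Each line gives 300 bases, 5′ to 3′ on the strand of the gene, and capitals mark letters that match a motif on either strand: the core of an interferon-regulatory-factor element (AANNGAAA), the X2 site to which CREB and ATF proteins bind (TGACGC), the Y box to which NF-Y binds (CCAAT), the STAT element (TTCNNNGAA) or the κB consensus. For *H2-K1* RefSeq lists 2 starts that are 14 bases apart, and the window of the one farther upstream is shown. The windows are *H2-K1* (chr17:34000298-34000597, minus strand), *H2-D1* (chr17:35262844-35263143, plus strand), *B2m* (chr2:122147437-122147736, plus strand) and *Tap1* (chr17:34187306-34187605, plus strand).
H2-K1: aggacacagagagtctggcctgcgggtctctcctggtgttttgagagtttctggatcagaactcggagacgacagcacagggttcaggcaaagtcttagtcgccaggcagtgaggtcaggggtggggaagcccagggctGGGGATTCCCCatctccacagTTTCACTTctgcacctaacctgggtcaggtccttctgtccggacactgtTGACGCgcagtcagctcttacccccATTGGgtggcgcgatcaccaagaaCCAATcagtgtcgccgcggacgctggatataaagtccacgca
H2-D1: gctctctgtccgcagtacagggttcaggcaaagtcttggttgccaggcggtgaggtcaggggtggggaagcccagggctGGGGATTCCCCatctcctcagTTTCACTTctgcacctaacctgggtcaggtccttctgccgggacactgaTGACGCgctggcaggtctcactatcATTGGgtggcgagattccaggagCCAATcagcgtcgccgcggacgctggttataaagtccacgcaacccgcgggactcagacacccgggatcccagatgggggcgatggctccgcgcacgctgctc
B2m: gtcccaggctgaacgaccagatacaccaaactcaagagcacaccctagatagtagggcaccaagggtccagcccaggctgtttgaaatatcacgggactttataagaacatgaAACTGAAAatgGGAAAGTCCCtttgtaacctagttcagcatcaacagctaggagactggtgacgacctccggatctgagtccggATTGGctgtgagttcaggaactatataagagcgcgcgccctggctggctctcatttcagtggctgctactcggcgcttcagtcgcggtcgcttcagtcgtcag
Tap1: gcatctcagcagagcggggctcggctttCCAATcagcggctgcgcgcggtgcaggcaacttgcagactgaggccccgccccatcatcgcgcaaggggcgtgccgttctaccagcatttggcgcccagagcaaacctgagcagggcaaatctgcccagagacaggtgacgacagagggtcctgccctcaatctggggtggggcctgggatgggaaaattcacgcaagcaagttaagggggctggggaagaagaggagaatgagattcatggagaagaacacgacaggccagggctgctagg

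The heavy chain promoters shared one layout. In *H2-K1* and *H2-D1* alike, reading in the direction of transcription, a κB match stood first, the interferon-regulatory-factor core followed, and the X2 site came next. The first base of the core lay 49 bases before the first base of X2 in both genes, the first κB match lay 70 bases before X2 in both, and a Y box on the opposite strand began 25 bases after X2 in both. A further CCAAT began 49 bases after X2 in *H2-K1* and 48 bases after it in *H2-D1*. The X2 match stood 41 bases before the start in *H2-K1* and 101 bases before it in *H2-D1*. The window of *B2m* held the core from 137 bases before the start, a κB match from 126 bases before it and a Y box from 53 bases before it, and no X2 match of these letters. The window of *Tap1* held only a CCAAT, 222 bases before its start. *Tap1* and *Psmb9* are transcribed away from each other from starts 226 bases apart, and their windows share 275 bases. Among the 8 genes with a window, the core matched in 3 (*B2m*, *H2-D1* and *H2-K1*), the κB consensus in the same 3, X2 in 2 (*H2-D1* and *H2-K1*), the Y box in 6 (these 3 with *Psmb9*, *Tap1* and *Tapbp*) and the STAT element in 1 (*Psmb8*). The Y box matches of *Tap1* and *Psmb9* are the same bases in their shared stretch, counted for both genes. Of 32817 mouse windows of this length, 23.9% held the core, 8.46% the κB consensus, 7.39% X2, 37.4% the Y box and 8.29% the STAT element. In the 4 windows shown, the 2 κB matches in each heavy chain promoter overlap each other and no matches of different motifs overlap. A match of letters is a description and shows no binding.

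Most of the class I genes were higher in cells that expressed OSCAR. Of the 10 genes, 8 rose in Ad-OSCAR against Ad-Control cells (adjusted p below 0.05, edgeR's quasi-likelihood F test), where 32.7% of the 15362 genes tested rose. None of the 10 fell, where 32.2% of all genes tested fell. The median log2 fold change over the 10 genes was 0.82, against 0.022 over all genes tested. *Nlrc5* rose 8.90-fold, *Tap1*, *Psmb9* and *H2-K1* rose by a log2 fold change of 1.02 to 1.44, and *B2m* and *Tap2* rose by 0.48 and 0.49. *Tapbp* and *Psmb10* did not pass the test. In the same 8 genes every Ad-OSCAR culture lay above every Ad-Control culture, which held for 35.0% of all genes tested.

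**Figure D1:**
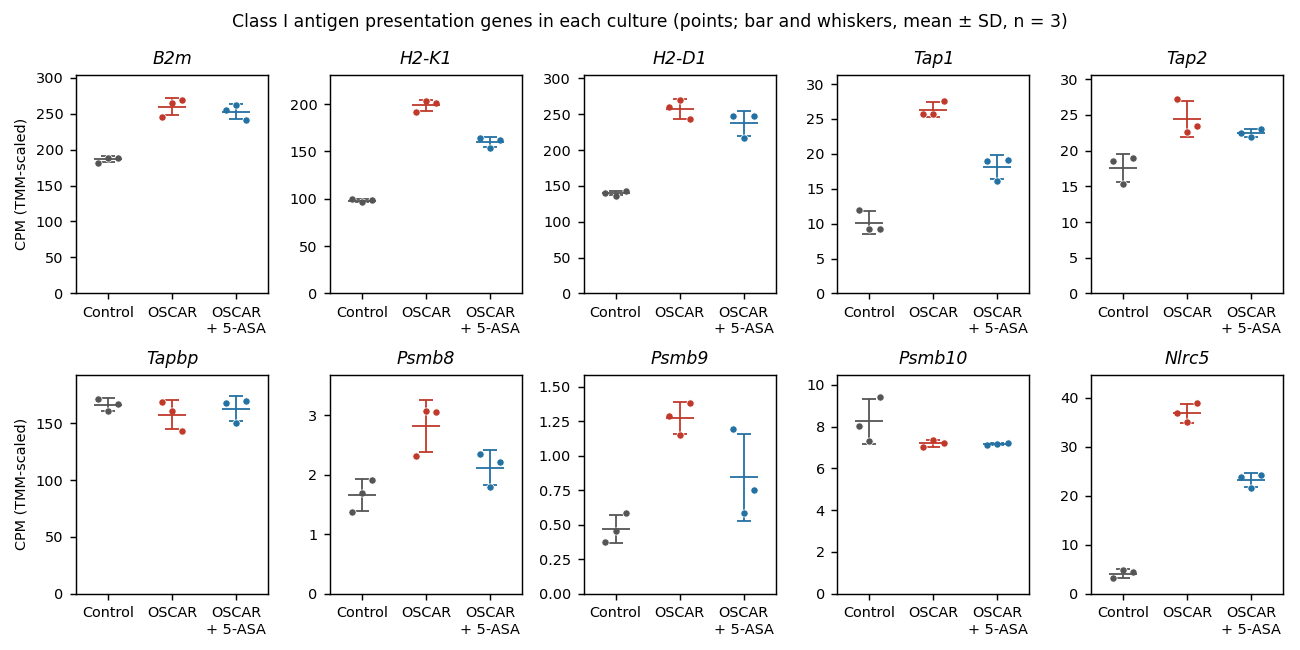
Each panel plots 1 gene, with TMM-scaled counts (CPM) on a linear axis that starts at 0 and the 3 groups on the horizontal axis. Points are cultures, the wide bar is the mean and the whiskers are the SD (n = 3). In 8 panels the Ad-OSCAR points lie above all Ad-Control points, and Tapbp and Psmb10 do not show this.

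*Nlrc5* showed the largest change of the 10. Its level was 3.12, 4.85 and 4.39 CPM in the 3 Ad-Control cultures, 36.8, 34.9 and 38.8 CPM in the Ad-OSCAR cultures and 23.8, 21.6 and 24.3 CPM in the 5-ASA-treated cultures. CPM are counts scaled to library size and composition with the TMM method. The 3 groups did not overlap, with the treated cultures between the other two groups and nearer to Ad-OSCAR. With OSCAR its log2 fold change was 3.15 (SE 0.10, adjusted p = 8.63e-15), and it was the only one of the 10 genes beyond the study's limit for OSCAR (a log2 fold change above 1.5 with an adjusted p below 0.05), which 4.57% of genes passed as higher and 5.39% as lower. The values rest on 66 to 118 counts in Ad-Control and 852 to 1085 counts in Ad-OSCAR. Its change per length was smaller: the ratio of mean TPM (values scaled to the length of the transcripts as well as to the library) was 6.91 where the ratio of mean CPM was 8.95, and the mean effective length of its transcripts as the authors' files give it was 2520 bases in Ad-Control and 3119 bases in Ad-OSCAR. A non-coding gene on the opposite strand, *9330175E14Rik*, shares 748 bases with *Nlrc5* and had 3 to 122 counts, and whether the counting used strand is not given in the sources used here.

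The heavy chains *H2-K1* and *H2-D1*, which hold the peptide, rose together. *H2-K1* was at 99.3, 96.2 and 98.5 CPM in Ad-Control, 192.0, 203.3 and 201.0 CPM in Ad-OSCAR and 163.8, 154.1 and 162.4 CPM in 5-ASA-treated cultures. All Ad-OSCAR values lay far above the controls, and the treated values lay between. *H2-D1* was at 140.7, 136.5 and 143.1 CPM in Ad-Control, 259.6, 269.8 and 242.8 CPM in Ad-OSCAR and 247.9, 216.9 and 247.3 CPM with 5-ASA, where the treated and untreated Ad-OSCAR cultures overlapped. Ad-OSCAR against Ad-Control gave a log2 fold change of 1.02 (SE 0.05, adjusted p = 7.49e-13) for *H2-K1* and 0.88 (SE 0.06, adjusted p = 1.26e-10) for *H2-D1*. Over the 9 cultures these were the closest pair among the 10 genes, with a root mean square distance of 0.10 between their log2 levels relative to Ad-Control.

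Counts of these chains share reads with near-identical H2 genes, and those of *H2-K1* and *H2-D1* were not whole numbers in any of the 9 cultures, because RSEM divides such reads between genes. The counts of single H2 genes are uncertain for this reason. Those of *Tap1*, *Tap2*, *Tapbp* and *Psmb9* were not whole in 8 of the 9 cultures. Summed before the test, *H2-K1* and *H2-D1* had 4571 to 5663 counts in Ad-Control, 11539 to 13311 in Ad-OSCAR and 10168 to 10701 with 5-ASA, and their log2 fold change with OSCAR was 0.94. With all 31 H2 class I genes of the annotation summed, which does not depend on how reads were divided among them, it was 0.92 (SE 0.04, adjusted p = 2.21e-12).

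*B2m* encodes beta-2-microglobulin, the light chain that every class I heavy chain needs to leave the endoplasmic reticulum. Its level was 181.9, 188.6 and 189.0 CPM in Ad-Control, 246.0, 264.2 and 269.5 CPM in Ad-OSCAR and 255.7, 261.7 and 240.8 CPM in the treated cultures. Both Ad-OSCAR groups lay above the controls and overlapped each other. The rise with OSCAR was a log2 fold change of 0.48 (SE 0.05, adjusted p = 7.59e-08), smaller than that of the heavy chains, with 95% intervals of 0.38 to 0.58 for *B2m*, 0.92 to 1.12 for *H2-K1* and 0.76 to 1.00 for *H2-D1*. The difference between these genes was not itself tested. *Patl2*, which spans *B2m* on the opposite strand, had no counts.

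*Tap1* and *Tap2* together encode the peptide transporter. *Tap1* was at 11.99, 9.21 and 9.20 CPM in Ad-Control, 25.8, 25.7 and 27.6 CPM in Ad-OSCAR and 19.0, 16.1 and 19.1 CPM with 5-ASA. The 3 groups were apart, in the same order as for *Nlrc5*. *Tap2* was at 18.5, 15.3 and 18.9 CPM in Ad-Control, 27.3, 22.6 and 23.5 CPM in Ad-OSCAR and 22.54, 21.92 and 23 CPM with 5-ASA, so that the controls lay below both Ad-OSCAR groups and these overlapped. With OSCAR the log2 fold change was 1.38 (SE 0.10, adjusted p = 3.68e-10) for *Tap1* and 0.49 (SE 0.08, adjusted p = 6.42e-05) for *Tap2*, and their 95% intervals, 1.18 to 1.58 and 0.31 to 0.66, did not overlap, although the difference between them was not itself tested. On the TPM scale the ratio of *Tap1* to *Tap2* was 0.453 to 0.729 in Ad-Control cultures and 0.869 to 1.22 in Ad-OSCAR cultures.

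*Tapbp* encodes tapasin, which bridges TAP and the heavy chain in the loading complex. It was at 171.8, 160.8 and 167.2 CPM in Ad-Control, 169.3, 160.8 and 143.5 CPM in Ad-OSCAR and 168.3, 150.1 and 170.0 CPM with 5-ASA, and the 3 groups overlapped. The log2 fold change with OSCAR was -0.08 (95% interval -0.21 to 0.05, adjusted p = 0.274), so that a rise as large as that of *B2m* lies outside the interval. Scaled by library totals alone the value was 0.05, of the opposite sign. *Tapbp* overlaps *Zbtb22* on the same strand over 3422 bases, and *Zbtb22* had 619 to 910 counts against 3164 to 4989 for *Tapbp*.

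Of the 3 catalytic subunits of the immunoproteasome, *Psmb8* and *Psmb9* rose with OSCAR and *Psmb10* did not pass the test. *Psmb8* was at 1.37, 1.69 and 1.90 CPM in Ad-Control, 2.31, 3.08 and 3.06 CPM in Ad-OSCAR and 2.35, 1.79 and 2.21 CPM with 5-ASA. *Psmb9* was at 0.378, 0.452 and 0.581 CPM in Ad-Control, 1.29, 1.15 and 1.38 CPM in Ad-OSCAR and 1.19, 0.584 and 0.751 CPM with 5-ASA. In both genes the Ad-OSCAR cultures lay above the controls, at low levels that rest on 29 to 84 counts for *Psmb8* and 8 to 38 counts for *Psmb9*. The log2 fold change with OSCAR was 0.76 (SE 0.20, adjusted p = 0.00256) for *Psmb8* and 1.44 (SE 0.32, adjusted p = 0.00072) for *Psmb9*. Over 18 alternative settings *Psmb9* ranged from 0.67 to 1.60 and passed in all 18. *Psmb10* was at 8.02, 7.31 and 9.41 CPM in Ad-Control, 7.02, 7.34 and 7.24 CPM in Ad-OSCAR and 7.12, 7.15 and 7.23 CPM with 5-ASA. Its Ad-OSCAR values lay within or below the range of the controls, with a log2 fold change of -0.19 (95% interval -0.40 to 0.03, adjusted p = 0.112). Without the second Ad-Control culture *Psmb10* was lower with OSCAR (log2 fold change -0.28, adjusted p = 0.0339). Of these, *Psmb9* shares 212 bases with *Tap1* on the opposite strand, and *Psmb10* lies within the non-coding *Gm16156*, which had 10 to 17 counts.

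**Figure D2:**
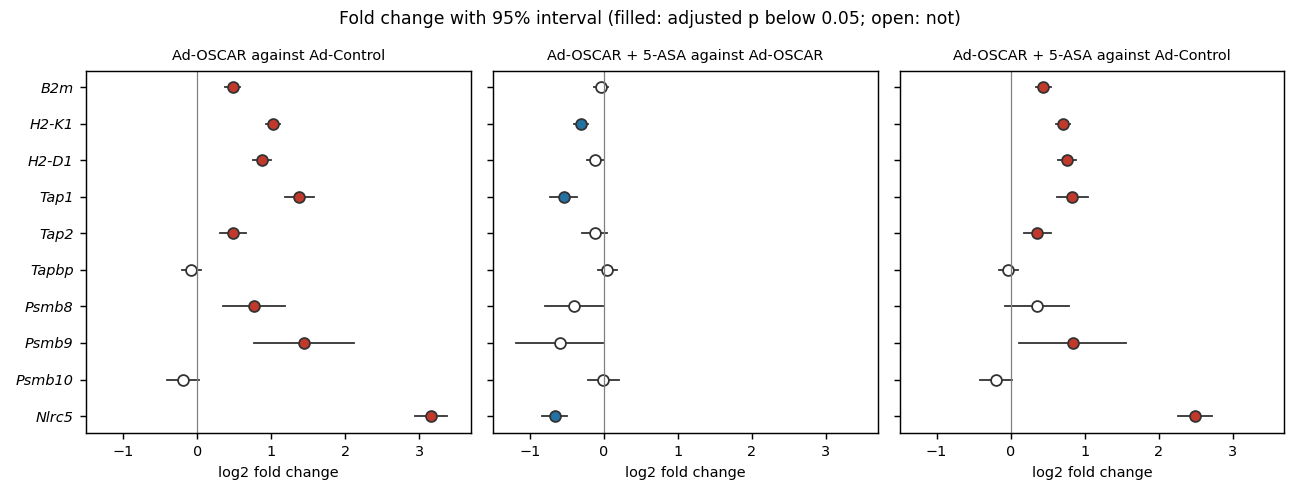
Log2 fold change of each of the 10 genes (points) with its 95% interval (lines), in 3 comparisons of cultures. Filled points passed edgeR's test at an adjusted p below 0.05. In the left panel 8 of 10 points are filled above 0, in the middle panel 3 of 10 are filled below 0, and in the right panel 7 of 10 are filled above 0.

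The constitutive subunits that the immunosubunits replace stayed more abundant in every group. Per length, *Psmb5* was 40.2 to 51.9 times the level of *Psmb8* in Ad-Control and 28.4 to 40.6 times in Ad-OSCAR cultures, by TPM. In treated cultures it was 36.7 to 45.9 times, and the groups overlapped. *Psmb6* was 247 to 267 times the level of *Psmb9* in Ad-Control, 107 to 124 times in Ad-OSCAR and 139 to 199 times in treated cultures, so that the groups did not overlap. *Psmb7* was 4.42 to 5.58 times the level of *Psmb10* in Ad-Control, 5.86 to 6.22 times in Ad-OSCAR and 5.32 to 5.48 times in treated cultures. *Psmb5* (log2 fold change 0.21) and *Psmb7* (0.18) rose with OSCAR, and *Psmb6* was at 0.03 (adjusted p = 0.687). Of the 11 other subunits of the 20S core, 4 rose, none fell and 7 did not pass, where 32.7% of all genes tested rose and 32.2% fell. Those that rose were *Psma6* (by 0.41), *Psmb3* (by 0.29), *Psma2* (by 0.13) and *Psma7* (by 0.12), and the median of the 11 was -0.01. *Psme1* and *Psme2*, the subunits of the PA28 activator that interferon induces, rose by 0.63 and 0.35, while *Psmg1*, an assembly chaperone, fell by 0.32 and *Psme3* (0.04), *Psme4* (-0.0056) and *Pomp* (0.04) did not pass.

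Among other class I and class I-like heavy chains, 16 of 19 listed passed the filter on low counts. Of these 12 rose with OSCAR, 1 fell and 3 did not pass the test, where 32.7% of all genes tested rose and 32.2% fell, and their median log2 fold change was 0.70. *H2-T3*, *H2-M2* and *H2-M5* did not pass the filter. The Qa and T region chains *H2-Q6* (2.23, SE 0.16), *H2-T10* (1.69, SE 0.09) and *H2-Q4* (1.40, SE 0.07) rose most, and *H2-Q10*, *H2-Q2* and *H2-Q1* rose by 1.32, 1.16 and 1.05. *H2-T23*, which encodes Qa-1, rose by 0.73, *H2-T22* by 0.66, *H2-T24* by 0.62 and *H2-Q7* by 0.58. Their counts share reads with one another as above. *Mr1*, which presents vitamin metabolites to MAIT cells, rose by 0.86, and *Cd1d1*, which presents lipids to NKT cells, by 0.61. *Hfe*, which regulates iron uptake and binds no peptide, fell by 0.41, and the IgG carrier *Fcgrt* was at -0.03 (adjusted p = 0.637). *H2-M3* was at 0.18 (adjusted p = 0.221) and *H2-K2* at -0.51 (adjusted p = 0.0613), and *H2-K2* was lower in treated cells than in Ad-Control cells (-1.15, adjusted p = 5.49e-04).

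Of 5 further genes of peptide loading and trimming, 4 fell with OSCAR and none rose, where 32.2% of all genes tested fell and 32.7% rose, with a median log2 fold change of -0.44 against 0.022 over all genes. *Erap1*, the peptidase that trims peptides in the endoplasmic reticulum, fell by 0.57 (SE 0.06), the chaperone *Calr* by 0.50 (SE 0.04), *Pdia3*, the disulfide isomerase of the loading complex, by 0.44 (SE 0.04) and *Canx* by 0.18 (SE 0.05). *Tapbpl*, the relative of tapasin that edits peptides, was at 0.02 (adjusted p = 0.856). *Calr*, *Canx* and *Pdia3* serve all glycoproteins folded in the endoplasmic reticulum, and the summed chondrocyte markers, most of them secreted matrix proteins, fell in the same cultures. The part of that fall in these values was not tested.

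**Figure D3:**
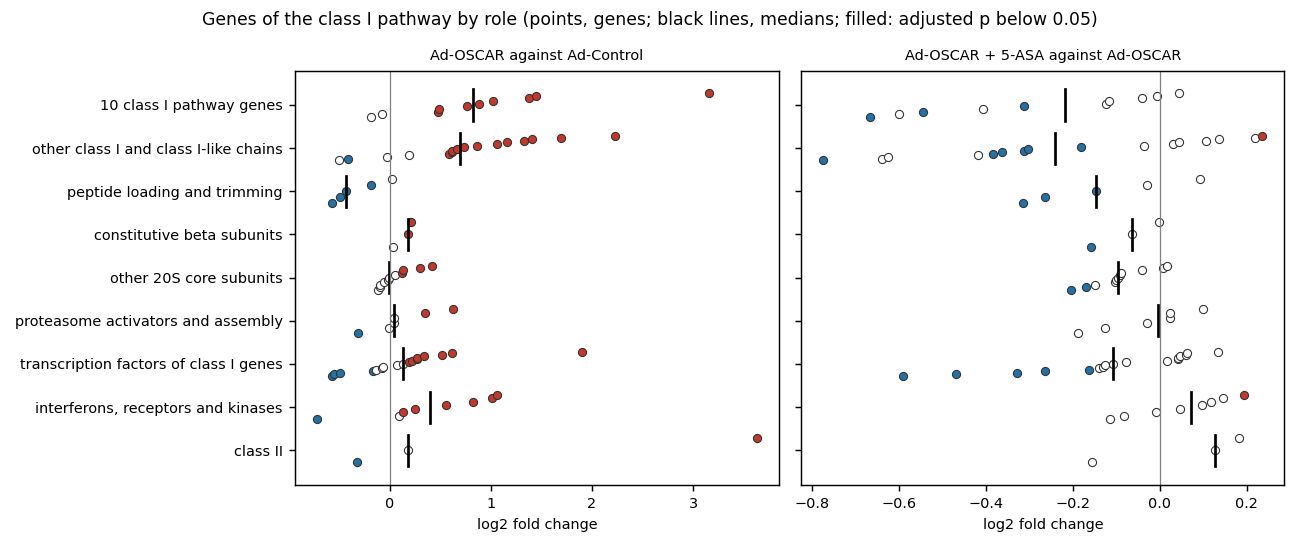
Log2 fold change of each gene (points) in the 10 genes and in 8 lists of the pathway, for Ad-OSCAR against Ad-Control (left) and for 5-ASA-treated against untreated Ad-OSCAR cells (right), with different horizontal scales. Black lines are list medians and filled points have an adjusted p below 0.05. On the left the class I chains lie mostly above 0 and the loading genes at or below it, and on the right most filled points lie below 0.

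Among 18 transcription factors of class I genes, 17 were tested, of which 8 rose with OSCAR, 4 fell and 5 did not pass, where 32.7% of all genes rose and 32.2% fell, and *Irf8* did not pass the filter. *Irf7*, an interferon regulatory factor that is itself induced by interferon, rose by a log2 fold change of 1.90 (SE 0.17), from 1.79 ± 0.23 to 6.61 ± 0.90 CPM (SD, n = 3). *Irf9* rose by 0.61, *Irf2* by 0.27 and *Irf3* by 0.18. The NF-κB subunits *Rela* and *Nfkb1* rose by 0.52 and 0.33. Among the RFX, NF-Y and CREB or ATF proteins through which NLRC5 acts, *Nfyc* fell by 0.58, *Rfxap* by 0.55, *Rfx5* by 0.49 and *Atf1* by 0.17, while *Nfya* rose by 0.22. *Rfxank* was at -0.08 (adjusted p = 0.447), *Nfyb* at 0.13 (adjusted p = 0.163) and *Creb1* at -0.14 (adjusted p = 0.0752). *Irf1*, a factor through which interferon-γ induces the pathway, was at -0.07 (95% interval -0.26 to 0.12, adjusted p = 0.514), and *Stat2* at 0.06 (adjusted p = 0.378).

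*Ifnb1* and *Ifng*, which encode interferon-β and interferon-γ, had no counts in any of the 9 cultures. At 95% confidence, a culture without counts still allows an expected count of up to 3, or 0.102 to 0.159 CPM. These limits cover counting error only. The receptor chains for these interferons were expressed and 4 of 4 rose with OSCAR, where 32.7% of all genes tested rose. *Ifngr2* rose by 1.06, *Ifnar2* by 1.01, *Ifnar1* by 0.55 and *Ifngr1* by 0.12. The kinases *Tyk2* and *Jak2* rose by 0.82 and 0.25, *Jak1* was at 0.09 (adjusted p = 0.0633), and *Socs1*, which inhibits the kinases, fell by 0.72. Of the interferon list of 10, 8 were tested, of which 6 rose and 1 fell, where 32.7% of all genes tested rose and 32.2% fell.

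Of 7 class II genes listed, 3 passed the filter. *H2-Ab1* had 0 to 1 counts in Ad-Control, 8 to 16 in Ad-OSCAR and 11 to 15 in treated cultures, and was higher with OSCAR (adjusted p = 1.18e-04). *H2-DMa* fell by 0.33 and *H2-DMb1* was at 0.18 (adjusted p = 0.417), on 113 to 173 and 35 to 92 counts. Among the 4 that did not pass the filter, *H2-Aa* and *H2-Eb1* had at most 2 and 9 counts, *Cd74*, the invariant chain, had at most 7 counts and *Ciita*, the class II counterpart of *Nlrc5*, at most 8 counts in any culture.

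With 5-ASA, 3 of the 10 genes fell against untreated Ad-OSCAR cells and none rose, where 7.38% of all genes tested fell and 10.4% rose. These 3 were *Nlrc5*, *Tap1* and *H2-K1*, and their treated cultures lay below all untreated cultures, which held for 16.1% of genes tested. The split of all genes depended on the scaling, since 1598 rose and 1134 fell with TMM, and 1057 and 2523 with library totals alone. With limma on log2(TPM + 1), which changes the test and the correction for length as well, 562 rose and 1487 fell. The median log2 fold change over the 10 genes was -0.22, against -0.0044 over all genes tested. *Nlrc5* fell by 0.67 on the log2 scale (SE 0.08, adjusted p = 7.85e-06), a level 1.59-fold lower, and was at -0.78 (adjusted p = 0.0618) with limma on log2(TPM + 0.1). *Tap1* fell by 0.55 (SE 0.09, adjusted p = 1.81e-04) and *H2-K1* fell by 0.31 (SE 0.04, adjusted p = 7.16e-05). *Oscar* itself was lower by 0.97 in the same cultures, and its part in these values was not tested.

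The other 7 did not pass the test with 5-ASA. *B2m* was at -0.04 (95% interval -0.14 to 0.06, adjusted p = 0.629), *Tap2* at -0.12 (-0.29 to 0.05, adjusted p = 0.329), *Tapbp* at 0.04 (-0.08 to 0.17, adjusted p = 0.684) and *Psmb10* at -0.01 (-0.22 to 0.21, adjusted p = 0.979). *H2-D1* was at -0.12 (SE 0.05, adjusted p = 0.159), and at -0.19 (adjusted p = 0.0173) with library totals alone. *Psmb8* was at -0.41 (SE 0.19, adjusted p = 0.146) and *Psmb9* at -0.60 (SE 0.28, adjusted p = 0.155), with intervals that ended just below 0. The study's limits for 5-ASA, a fold beyond 1.5 with an unadjusted p below 0.05, are worded in its methods for treated cells against Ad-Control and were applied here to this comparison too. By them 2 of the 10 genes were lower (*Nlrc5* and *Psmb9*) and none higher, where 1.87% of all genes were lower and 2.27% higher. *Psmb9* was only just past them, at 1.52-fold lower (unadjusted p = 0.0458, edgeR's quasi-likelihood F test). With each culture left out, its log2 fold change ranged from -0.93 to -0.39. With *H2-K1* and *H2-D1* summed the log2 fold change was -0.20 (adjusted p = 0.00633), and with all 31 H2 class I genes summed it was -0.22 (adjusted p = 0.0014).

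The other class I chains followed in part. Of 16 tested, 6 fell with 5-ASA, where 7.38% of all genes tested fell and 10.4% rose. These were *H2-Q6* by 0.77 (SE 0.13), *H2-T10* by 0.39 (SE 0.08), *H2-Q7* by 0.36 (SE 0.11), *H2-T23* by 0.31 (SE 0.06), *H2-Q4* by 0.30 (SE 0.06) and *H2-T22* by 0.18 (SE 0.05). *Fcgrt* rose by 0.24, and the other 9 did not pass. Of 17 transcription factors tested, 5 fell and none rose, where 7.38% of all genes tested fell and 10.4% rose. Among the 5 were the interferon-response factors *Irf7* (by 0.59), *Stat2* (by 0.33), *Irf9* (by 0.27) and *Irf3* (by 0.16). *Stat2* ended below the controls, at -0.26 (adjusted p = 0.00162) against Ad-Control. Of the loading genes *Calr*, *Canx* and *Pdia3* fell further with 5-ASA, by 0.31, 0.26 and 0.15, and *Erap1* (-0.03) and *Tapbpl* (0.09) did not pass. Of the 6 chondrocyte markers, 5 rose in this comparison, and their part in these values was not tested. *Psmb7*, *Psma1* and *Psma4* fell by 0.16, 0.20 and 0.17, *Psmb5* and *Psmb6* did not pass, no activator or assembly gene passed, *Ifnar2* rose by 0.19, and none of the 3 class II genes passed.

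Treated cells were still above Ad-Control cells in 7 of the 10 genes, where 31.4% of all genes tested were higher, and in none of the 10 lower, where 31.8% were lower. In those 7 every treated culture lay above every Ad-Control culture, which held for 33.4% of genes tested. In *Psmb10* every treated culture lay below the controls, which held for 33.2%. By the study's limits for 5-ASA, 5 of the 10 were higher than in Ad-Control (*Tap1*, *H2-K1*, *H2-D1*, *Nlrc5* and *Psmb9*) and none lower, where 14.6% of all genes were higher and 15.3% lower. *Nlrc5* was 5.60-fold higher than in Ad-Control (log2 fold change 2.49, adjusted p = 5.96e-13). *Psmb9* was at 0.84 (adjusted p = 0.0404), *Tap1* at 0.83 (adjusted p = 7.3e-07), *H2-D1* at 0.76 (adjusted p = 1.13e-09), *H2-K1* at 0.71 (adjusted p = 1.73e-10), *B2m* at 0.44 (adjusted p = 2.76e-07) and *Tap2* at 0.36 (adjusted p = 0.00127). *Psmb9*, with 8 to 31 counts in these cultures, passed in 9 of 18 alternative settings. It missed the threshold when any of 5 cultures was left out, which were the first or second Ad-Control culture (adjusted p = 0.132 and 0.0965), the first Ad-OSCAR culture (0.0505) and the first or the third treated culture (0.252 and 0.0502). *Tap2* was at 0.20 (adjusted p = 0.0731) with limma on log2(TPM + 1). *Psmb8* was at 0.36 (95% interval -0.08 to 0.79, adjusted p = 0.141), *Tapbp* at -0.03 (adjusted p = 0.655) and *Psmb10* at -0.19 (adjusted p = 0.106), or -0.28 (adjusted p = 0.0328) without the second Ad-Control culture. This comparison and the one above share the treated cultures, and it shares the control cultures with the comparison of OSCAR.

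**Figure D4:**
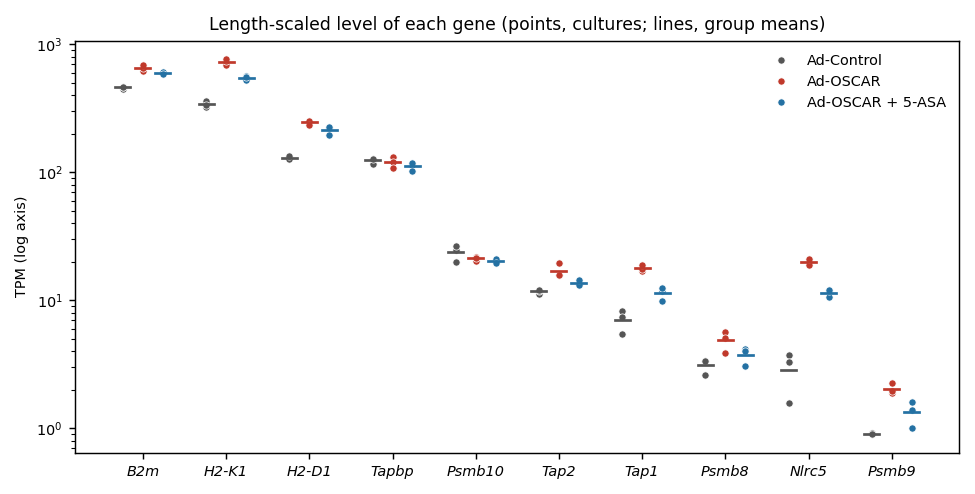
Level of each of the 10 genes per transcript length, in TPM on a log axis, with genes ordered by their mean in Ad-Control. Points are cultures and lines are group means (n = 3). The genes span from about 1 TPM for Psmb9 to 340.0 to 729.5 TPM for H2-K1, and Nlrc5 moves from 2.87 to 19.8 TPM between Ad-Control and Ad-OSCAR.

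Per length, the light chain led in control cells. In Ad-Control the mean TPM was 460.3 for *B2m*, 340.0 for *H2-K1*, 129.7 for *H2-D1*, 123.5 for *Tapbp*, 23.7 for *Psmb10*, 11.7 for *Tap2*, 7.02 for *Tap1*, 3.09 for *Psmb8*, 2.87 for *Nlrc5* and 0.907 for *Psmb9*. *B2m* lay at the 98.1 percentile and *Psmb9* at the 13.0 percentile of genes tested. *H2-D1* and *Tapbp* overlapped between cultures, as did *Psmb8* and *Nlrc5*, and all other neighbours in this order were apart. In Ad-OSCAR cells *H2-K1* led, at 729.5 ± 34.8 TPM against 649.9 ± 35.6 TPM for *B2m* (SD, n = 3), and the ratio of *B2m* to *H2-K1* was 1.24 to 1.44 in Ad-Control, 0.879 to 0.903 in Ad-OSCAR and 1.05 to 1.16 in treated cultures, with no overlap. TPM rests on the effective length the authors' files give, 449 to 493 bases for *H2-K1* against 1732 to 1785 bases for *H2-D1*, and in counts *H2-D1* was the higher of the heavy chains. In CPM, which does not use length, *B2m* stayed above *H2-K1* in Ad-OSCAR cells, at a mean of 259.9 against 198.8. *Nlrc5* moved from the ninth place to the sixth, at 19.8 TPM, where it overlapped *Psmb10* (21.2) and *Tap1* (17.7), and *Tap1* overlapped *Tap2* (16.9). In treated cells *Nlrc5* (11.5) and *Tap1* (11.4) overlapped, and the other neighbours were apart.

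Likeness was measured over the 9 cultures as the root mean square distance between a gene's log2 CPM, less its Ad-Control mean, and the median of the same over the 10 genes. This median was 0.76, 0.91 and 0.83 in the 3 Ad-OSCAR cultures and 0.62, 0.41 and 0.51 in the treated cultures. *H2-D1* (0.15) and *H2-K1* (0.16) lay nearest to it, *Nlrc5* (1.77) farthest, and *Tapbp* (0.62) and *Psmb10* (0.72), which were nearest to each other (0.16), stood apart as well. Among 13258 genes with a mean of at least 1 CPM, the 5 others most like the median were *BC003965* (0.066), *Rgl2* (0.073), *Thap6* (0.077), *Ctc1* (0.078) and *Hsd3b7* (0.079). A total of 200 other genes lay nearer to the median than *H2-D1* did.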

How the data were processed

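RNA from 9 cultures, 3 per group as the sample annotations assign them, was sequenced by the authors. They trimmed the reads with BBDuk, aligned them to GRCm38 with STAR 2.7.1a and estimated counts per gene with RSEM 1.3.1, and whether the counting used strand is not given in the sources used here. The deposited files hold expected counts, which need not be whole and are not scaled, together with TPM, which the authors made by scaling to length and library, and FPKM, which were not used. Between 8.97% and 10.1% of the genes had a count more than 0.001 from a whole number. Replicates differed by more than sampling noise (chi-square per degree of freedom 4.03 to 7.52).

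Expected counts were rounded and tested in R 4.3.3 with edgeR 4.0.16 (TMM, filterByExpr by group, quasi-likelihood F test, Benjamini-Hochberg adjustment over 15362 genes) in a joint fit of the 9 cultures by group, which leaves 6 residual degrees of freedom. The biological coefficient of variation was 5.11%, and standard errors were taken from the log2 fold change over the square root of F. The method was tested on simulated data. DESeq2 1.42.0, which the study used, was an alternative, with limma 3.58.1 on log2 TPM, other scalings and filters, only the groups compared, a replicate block and each culture left out. Of the 55471 genes, 55144 were found in GENCODE M21. Every one of the 10 genes is named, and in the pathway lists those with an adjusted p below 0.05 with OSCAR or 5-ASA or in a count of 5 or fewer, apart from an item that is not reported here. The genes and lists were chosen with earlier results of these data known. Python 3.11.15 with pandas 2.3.3, numpy 2.4.6, scipy 1.17.1 and matplotlib 3.10.9 made the tables and plots.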

Additional observations from a re-analysis of the deposited data

How the results depend on the processing

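The direction and the side of the threshold were kept in 543 of 567 values of single genes recomputed under an alternative. With each culture left out in turn, the number of the 10 genes called lower ranged from 0 to 1 for Ad-OSCAR against Ad-Control and from 0 to 1 for treated cells against Ad-Control. The 1 is *Psmb10* without the second Ad-Control culture, at -0.28 in both (adjusted p = 0.0339 and 0.0328). Values near 0 turned sign. With library totals alone, which moved the median of all genes by 0.13 with OSCAR, *Tapbp* was at 0.05 (0.0490) with OSCAR, at -0.03 (-0.0265) with 5-ASA and at 0.02 (0.0225) in treated cells against Ad-Control. With 5-ASA *Tapbp* was at -0.11 with limma on log2(TPM + 1) and on log2(TPM + 0.1) (-0.1086 and -0.1095) and from -0.0230 (without the third Ad-OSCAR culture) to 0.1002 with each culture left out. In the same way *Tapbp* in treated cells against Ad-Control ranged from -0.0660 to 0.0226 (without the second treated culture), and *Psmb10* with 5-ASA from -0.0278 to 0.0050 (without the second Ad-OSCAR culture). The fall of *Nlrc5* with 5-ASA was -0.78 (adjusted p = 0.0618) on log2(TPM + 0.1), and its adjusted p was below 0.05 in 18 of 19 alternatives. *Psmb9* with 5-ASA was at -0.38 (adjusted p = 0.0408) on log2(TPM + 1). In treated cells against Ad-Control, *Tap2* missed the threshold on both TPM scales, and the adjusted p of *Psmb9* ranged from 0.0166 to 0.252. A filter of at least 10 counts in every culture left *Psmb9* out. The causes were not tested. Of all genes, treated against Ad-Control, 4825 were higher and 4880 lower with TMM and 3352 and 5069 on log2(TPM + 1), and with OSCAR 5031 and 4952 with TMM and 6609 and 3907 with library totals alone.

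Replicate numbers 1 to 3 recur in every group of the labels. Cultures with one number did not deviate together from their groups (mean correlation across genes -0.021, from -0.0724 to 0.0402). This cannot show whether they share animals or a preparation, because cultures from a common pool would also give values near zero. With the replicate block, 8 of the 10 genes were higher with OSCAR and 3 lower with 5-ASA, as without it, and *Psmb9* in treated cells against Ad-Control had an adjusted p of 0.0524. Over all genes, 1483 rose and 1017 fell with 5-ASA under the block. Depth limits *Psmb8* and *Psmb9* most, with fewer than 100 counts in every culture.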
